A study of Sus scrofa with 21 samples.

Results

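Heart tissue was compared 14 days after birth between pigs with a myocardial infarction (MI) and naive pigs of the same age. The 3 MI pigs had the left descending coronary artery tied permanently on postnatal day 1, and the sample came from the border zone, the living muscle next to the ischaemic area. The 3 naive pigs gave tissue from the matching place in the heart. The 6 libraries, 1 per pig, are all those collected on day 14 among 21 in the series, and they were taken by their titles and by the matching column names of the deposited table. Titles give these controls as naive, but the protocol speaks of an operation that left out only the ligation, and which of the 2 applies could not be settled. All pigs of the series were reared by hand on colostrum and milk in an incubator, with supplemental iron. The labels name no breed, sex, litter or library batch. Total RNA was sequenced and the authors counted reads per gene. The other 15 libraries (naive hearts of days 1, 3, 7 and 28 and MI hearts of days 7 and 28) entered the statistical fit and are cited only where they bear on day 14.

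Cardiomyocytes of newborn mammals can still divide for a short time after birth, and infarcts made in the first days of life can heal with little scar in pigs and mice, an ability that is soon lost. Around an infarct, inflammatory cells clear dead tissue, fibroblasts lay down collagen-rich matrix, and surviving cardiomyocytes can shift from fatty acid use towards glycolysis and express stress genes such as the natriuretic peptides. A bulk sample of border zone holds all these cells together, so fewer cells of a type and less RNA per cell cannot be told apart.

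The MI libraries held 57822106, 72596613 and 95559841 counts and the naive libraries 51713747, 68247768 and 55125244. Levels are given as counts per 1000000 (CPM), not corrected for gene length, with library sizes scaled by edgeR's TMM method (trimmed mean of M values). Cardiomyocyte genes were abundant in every library. MYH7, the slow myosin heavy chain, had 31510, 26110 and 28930 CPM in the MI libraries, against 21970, 39260 and 60020 CPM in naive ones. TNNI3 is listed at 0 in all 21 libraries and MYH6 is not used here, so neither was tested. Naive replicate 3 belongs to a set of 4 libraries that differ from the other 17 in a few features. It had 5.32 CPM of the unnamed gene ENSSSCG00000035520, against 3221 to 5141 CPM in the other 5 day 14 libraries (CPM of unscaled totals). The 13 genes of the mitochondrial genome took 18.4% to 21.4% of the counts in MI libraries, 17.8% and 24.5% in the other naive libraries and 29.7% in naive replicate 3. Over all tested genes, Pearson's r of log2 CPM across genes was 0.955 to 0.965 between MI libraries (3 pairs), 0.955 to 0.975 between naive libraries (3 pairs) and 0.940 to 0.976 between an MI and a naive library (9 pairs). The ranges within and between the groups overlapped.

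On day 14 no single gene was called between MI and naive hearts. Of 15359 genes tested, 0 (0%) had an adjusted p under 0.05 in edgeR's quasi-likelihood F-test with Benjamini-Hochberg adjustment over all of them, and the smallest adjusted p was 0.476. At an unadjusted p under 0.05 stood 821 genes, 5.35% of those tested, with 459 higher (2.99%) and 362 lower (2.36%) in MI. In 1263 genes (8.22%) the 3 MI values and the 3 naive values did not overlap, with MI above in 573 (3.73%) and below in 690 (4.49%). The other 2 tools called few genes: DESeq2's Wald test called 14, 7 higher and 7 lower, and limma voom with sample weights called 0. The median standard error of a log2 fold change was 0.31, and the median half-width of its 95% interval was 0.65 on the log2 scale. For the 8319 genes averaging 10 CPM or more that half-width was 0.47. The SD of log2 CPM among pigs had the same median in both groups, 0.34. These widths are of single genes before adjustment, and larger differences also missed the adjusted threshold. None of the day 14 values below passed that threshold in the main edgeR fit, and they are given as levels and differences of these 6 hearts. Among other edgeR fits, the 1 without the separate set of 4 libraries called LIPM and ZBTB16 lower. The fit without MI replicate 1 called PTN higher. Of the genes named below, DESeq2 called GADD45G, TRAF3IP3, MYO7A, MYOC, LIPM and ENSSSCG00000035617 lower and NKD1, FGFR2, PTN, TRIM72 and UPK1B higher.

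The gene with the smallest p was GADD45G, a growth arrest and DNA damage inducible gene (chromosome 14, 1166000 to 1167538, RefSeq annotation of Sscrofa11.1). GADD45G had 33.0, 26.7 and 21.01 CPM in the MI libraries and 59.8, 84.3 and 85.5 CPM in the naive libraries. All MI values lay below all naive values, with a log2 fold change of -1.51 (SE 0.27, 95% interval -2.08 to -0.94, edgeR adjusted p 0.476). With DESeq2 the log2 fold change of GADD45G was -1.48 and its adjusted p 0.00106. On days 7 and 28 the groups overlapped in this gene. It had 49.9, 38.2 and 56.5 CPM in MI hearts of day 7, against 44.2, 37.1 and 26.5 CPM in naive hearts. On day 28 it had 142 and 91.4 CPM in MI hearts, against 77.8, 107 and 63.3 CPM in naive hearts. TRAF3IP3, an adaptor protein known from lymphocytes (chromosome 9, 133190020 to 133214209), was the next. TRAF3IP3 had 15.5, 14.6 and 14.5 CPM in MI and 38.5, 30.6 and 47.1 CPM in naive libraries (log2 -1.38, SE 0.27, edgeR adjusted p 0.624), and its adjusted p with DESeq2 was 0.00893. The 3 MI values were close together and were the lowest of all 21 libraries, which otherwise ranged from 16.6 to 68.4 CPM.

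Several further genes were lower in every MI heart than in any naive heart. MYO7A, an unconventional myosin best known from hair cells of the inner ear (chromosome 9, 11251187 to 11337618), had 2.62, 3.32 and 2.62 CPM in MI and 14.9, 9.29 and 12.7 CPM in naive libraries (log2 -2.11, SE 0.50). ZBTB16, a zinc finger transcription factor that glucocorticoids induce (chromosome 9, 41639536 to 41839254), had 12.9, 17.7 and 21.5 CPM in MI and 58.5, 80.2 and 58.4 CPM in naive libraries (log2 -1.92, SE 0.52). In both, every MI pig lay far below every naive pig. MLXIP, a glucose-sensing transcription factor also called MondoA (chromosome 14, 30575098 to 30646275), had 30.0, 35.0 and 35.5 CPM in MI and 56.7, 50.3 and 49.99 CPM in naive libraries (log2 -0.64, SE 0.17). LPIN1, a phosphatidate phosphatase and coactivator of fatty acid oxidation genes, had 38.2, 21.4 and 19.03 CPM in MI and 42.7, 52.9 and 82.3 CPM in naive libraries (log2 -1.18, SE 0.28). MLXIP was separated by a wide gap and LPIN1 by a narrow one, between MI replicate 1 and naive replicate 1. SGCD, a sarcoglycan of the muscle cell membrane, had 36.1, 26.0 and 22.8 CPM in MI and 37.2, 64.2 and 54.1 CPM in naive libraries (log2 -0.87, SE 0.23). ENTPD6, a nucleoside diphosphatase, had a log2 fold change of -0.85 (SE 0.20), also without overlap. The edgeR adjusted p of each of these 6 genes was 0.717. LIPM, a lipase, is listed at 0 counts in all 3 MI libraries and in naive replicate 3, against 196 and 461 counts in naive replicates 1 and 2. The groups thus overlapped at 0, through the naive library of the separate set. Without that set edgeR called LIPM, with a log2 fold change of -11.4. DESeq2's Wald test called it with all libraries (adjusted p 0.00106). Without naive replicate 3 the log2 fold changes of GADD45G, TRAF3IP3, MYO7A, ZBTB16 and MLXIP were -1.42, -1.22, -2.08, -1.99 and -0.67. MYOC and KLHL33, also among the 10 lowest p in this direction, had at most 1.27 and 5.04 CPM in any of the 21 libraries.

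**Figure D1:**
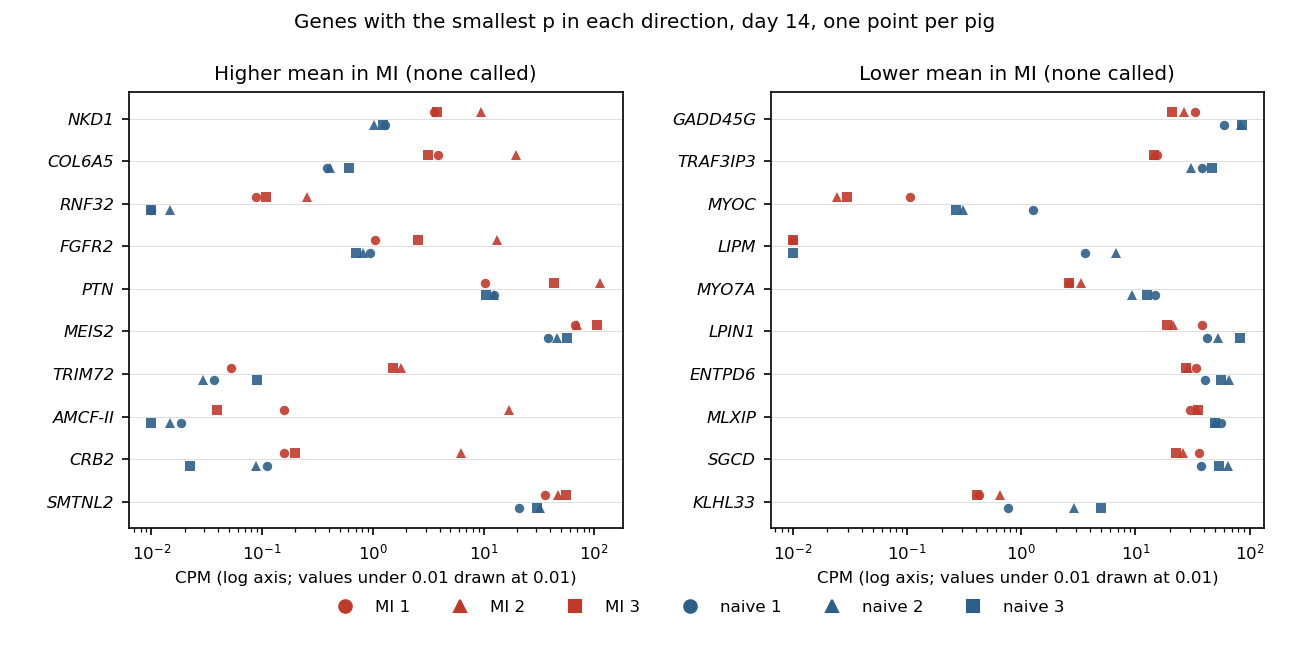
CPM on a log axis for the 10 genes with the smallest unadjusted p in each direction, 1 point per pig, MI in red above naive in blue within each gene. GADD45G, TRAF3IP3, MYO7A and MLXIP show 3 close MI points below all naive points, while MI replicate 2 (triangle) lies far to the right of the other MI libraries in FGFR2, PTN, AMCF-II and CRB2.

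Among genes with a higher mean in MI, a few were high in every MI pig. MEIS2, a homeobox transcription factor and relative of the cell cycle regulator MEIS1 (chromosome 1, 134013642 to 134223013), had 66.7, 69.4 and 105.8 CPM in MI and 37.8, 45.8 and 56.4 CPM in naive libraries (log2 0.79, SE 0.20). SMTNL2, a smoothelin-like protein of muscle, had 35.9, 47.4 and 55.5 CPM in MI and 21, 32.1 and 30.5 CPM in naive libraries (log2 0.73, SE 0.19). Neither overlapped between the groups, and the edgeR adjusted p was 0.717 for both. NKD1, an inhibitor of Wnt signalling that Wnt itself induces (chromosome 6, 34223888 to 34319584), had 3.59, 9.43 and 3.82 CPM in MI and 1.29, 1.02 and 1.24 CPM in naive libraries (log2 2.25, SE 0.47). NKD1 was also called higher in MI hearts on day 28 (log2 2.88, edgeR adjusted p 0.012). COL6A5, a collagen VI chain, had 3.87, 19.7 and 3.12 CPM in MI and 0.386, 0.413 and 0.607 CPM in naive libraries (log2 4.25, SE 0.92). COL6A5 was likewise called on day 28 (log2 6.94, edgeR adjusted p 0.00702). In both genes MI replicate 2 was the highest of the 6, and without that library the log2 fold changes were 1.65 for NKD1 and 2.90 for COL6A5. RNF32, a RING finger protein, had 5, 21 and 11 counts in MI and 0, 1 and 0 in naive libraries. These MI counts are only 0.088, 0.253 and 0.108 CPM, and naive hearts of other days had 0.0379 to 0.192 CPM.

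Some of the 10 smallest p in this direction rested on 1 or 2 MI pigs. PTN, the growth factor pleiotrophin, had 10.2, 113 and 43.0 CPM in MI and 12.4, 12.4 and 10.4 CPM in naive libraries (log2 2.24, SE 0.55). MI replicate 1 lay below the naive values, so the groups overlapped. TRIM72, a membrane repair protein of striated muscle, had 3, 149 and 155 counts in MI and 2, 2 and 4 counts in naive libraries. FGFR2, a receptor for fibroblast growth factors, had 1.06, 13.3 and 2.53 CPM in MI and 0.937, 0.811 and 0.697 CPM in naive libraries (log2 2.78, SE 0.68). AMCF-II, a porcine neutrophil-attracting chemokine, had 9, 1413 and 4 counts in MI and 1, 1 and 0 counts in naive libraries. CRB2, a cell polarity protein, had 6.25 CPM in MI replicate 2 and at most 0.196 CPM in the other 5 libraries. In AMCF-II and CRB2 a single MI heart carried nearly all of the counts.

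MI replicate 2 stood apart from the other 5 hearts in far more genes than any other library. With at least 1 CPM there, 150 genes (0.977% of those tested) exceeded 4 times the highest of the other 5 libraries in MI replicate 2. The same count was 5 (0.0326%) in MI replicate 1 and 21 (0.137%) in MI replicate 3. It was 6 (0.0391%), 1 (0.00651%) and 14 (0.0912%) in the naive libraries. Of the 150, 126 have a symbol. Since these genes were picked for their level in 1 library, no test is attached to them. Complement and coagulation, plasma protein cascades of defence and clotting, held 8 of their 29 tested members among the 150: C1R, C1S, C2, C3, C4A, CFB, CFI and F5, the last a coagulation factor. C3, the central component (chromosome 2, 72431470 to 72471622), had 47.0, 1737 and 98.5 CPM in MI and 77.9, 50.2 and 73.2 CPM in naive libraries. C1R, a protease that starts the classical pathway, had 67.1, 610 and 118 CPM in MI and 99.2, 81.6 and 71.9 CPM in naive libraries. For both, the other MI hearts lay within or near the naive range.

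Markers of the epicardium and mesothelium, the cell sheet that covers the heart, held 6 of their 13 tested members among the 150: WT1, UPK3B, UPK1B, KRT7, BNC1 and C3. WT1, an epicardial transcription factor, had 4.12, 35.8 and 5.43 CPM in MI and 7.13, 5.26 and 5.98 CPM in naive libraries. UPK1B, a uroplakin of mesothelial cells, had 0.563, 10.9 and 1.17 CPM in MI and 0.551, 0.457 and 0.112 CPM in naive libraries. KRT7, an epithelial keratin, had 0.106, 7.68 and 0.383 CPM in MI and 0.0367, 0.0885 and 0 CPM in naive libraries. Thus MI replicate 2 was several-fold above the 5 other hearts in each. The summed level of the 13 markers was 159, 2123 and 195 CPM in MI and 244, 186 and 156 CPM in naive libraries. Of these sums C3, also a complement gene, was 47.0, 1737 and 98.5 CPM in MI. It was 77.9, 50.2 and 73.2 CPM in naive libraries. UPK3B and BNC1 were at 0 in MI replicate 1 and in naive replicate 3. ALDH1A1, a retinaldehyde dehydrogenase on the same list, had 2.92, 1.76 and 1.69 CPM in MI and 9.81, 7.36 and 7.24 CPM in naive libraries (log2 -1.94, SE 0.65, edgeR adjusted p 0.776). It was the only one of the 13 with MI wholly below naive, and 2 had MI wholly above. Over all genes tested these shares were 4.49% and 3.73%.

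Matrix genes made up 7 of the 150 (of 55 tested) and inflammatory mediators 8 (of 41). FN1, fibronectin (chromosome 15, 117658158 to 117737145), had 271, 1783 and 258 CPM in MI and 277, 233 and 124 CPM in naive libraries. TIMP1, an inhibitor of matrix proteases, had 29.9, 343 and 20.8 CPM in MI and 28.8, 22.1 and 15.2 CPM in naive libraries. FMOD, a proteoglycan that orders collagen fibrils, had 31.4, 237 and 24.2 CPM in MI and 36.7, 25.6 and 7.33 CPM in naive libraries. In all 3, MI replicates 1 and 3 were close to the naive values. SOCS3, a feedback inhibitor of cytokine signalling, had 6.34, 49.3 and 8.85 CPM in MI and 8.84, 5.85 and 5.802 CPM in naive libraries. The neutrophil calprotectin genes S100A8 and S100A9 had 5.18 and 7.86 CPM in MI replicate 2 and at most 0.251 and 0.478 CPM in the other 5. APOE and LGALS3, both expressed by macrophages, had 202 and 37.4 CPM there and at most 16.2 and 3.46 CPM elsewhere. Levels of complement, epicardial, matrix and immune genes were thus high in the same heart. Its epicardial markers summed to 2123 CPM, of which C3, also a complement gene, was 1737 CPM. The part of the tissue sampled or of any cell type in these high levels was not tested.

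**Figure D2:**
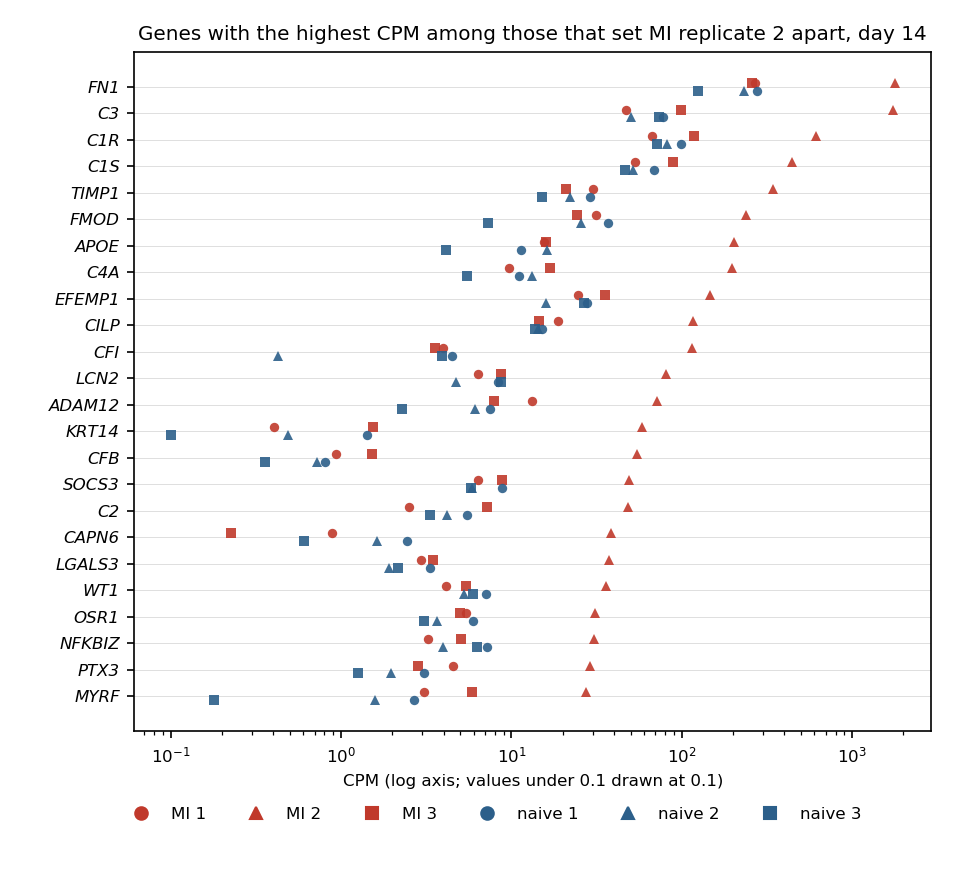
CPM on a log axis of the 24 genes with a symbol and the highest CPM among those in which MI replicate 2 exceeded 4 times every other day 14 library, 1 point per pig, MI in red above naive in blue within each gene. The red triangle of MI replicate 2 lies alone at the right in every line, from 1783 CPM for FN1 to 27.4 CPM for MYRF.

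MI hearts of day 28, which share no library with day 14, were also high in many of these genes. Of the 150, 58 (38.7%) were called higher on day 28 and 0 lower, against 687 of all genes tested (4.47%) called higher. In MI day 28 replicate 2, 143 of the 150 (95.3%) exceeded all 3 naive day 28 libraries, against 32.9% of all genes. In MI day 28 replicate 1 it was 115 (76.7%), against 33.6% of all genes. C3, for instance, had 163 and 2736 CPM in the MI libraries of day 28. The share over all genes is not a like background for these counts. A gene near 0 in the other day 14 hearts passed the low-count filter only if a library of another group expressed it. MI day 28 is among those groups, so part of this overlap could be set by the filter.

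**Figure D3:**
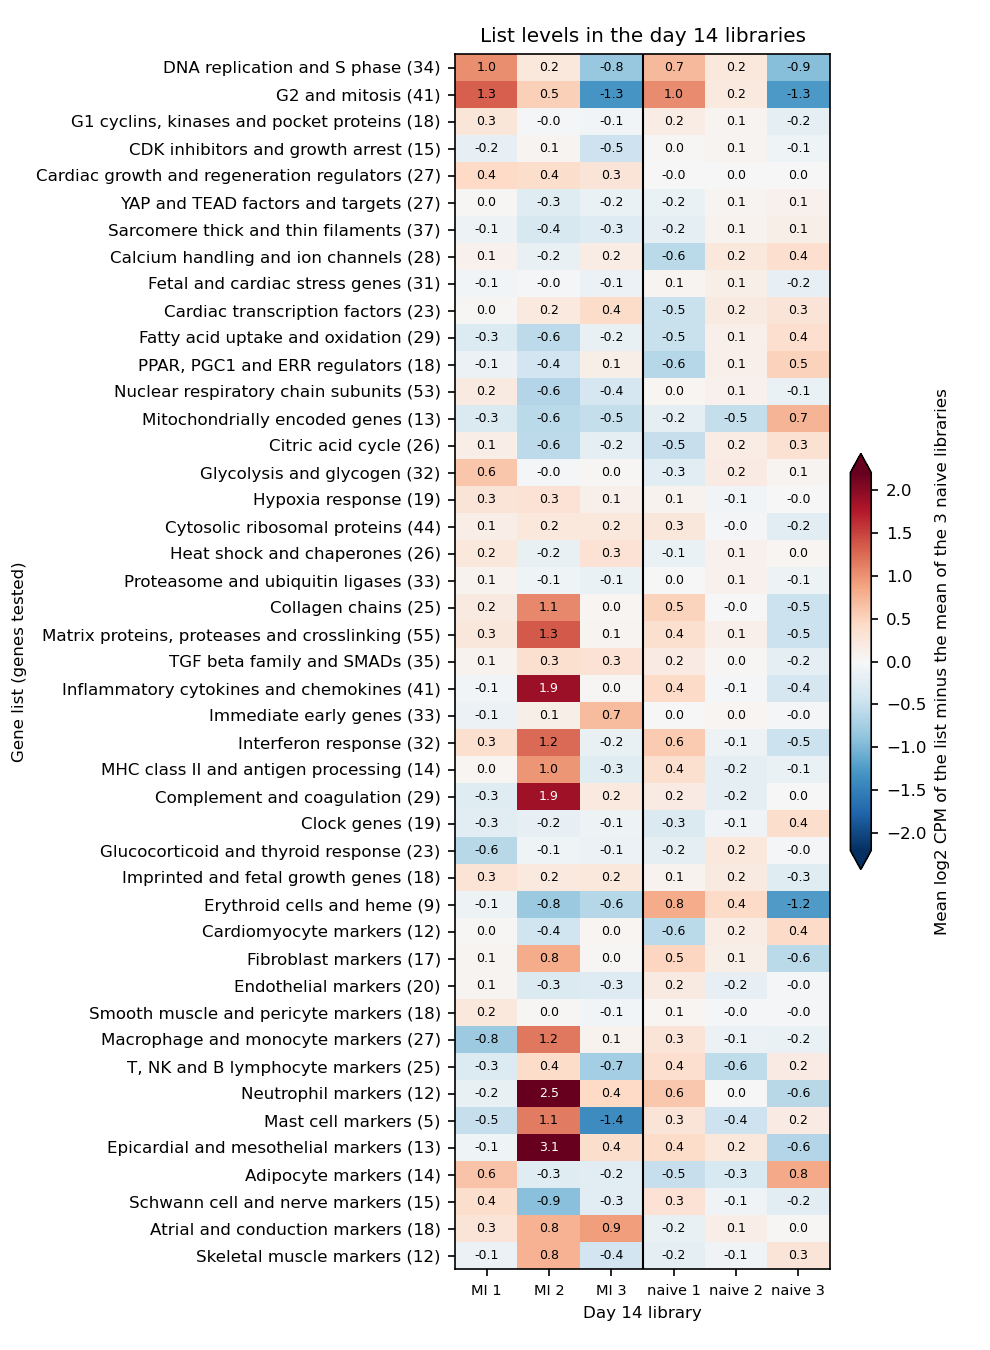
Mean log2 CPM of each of 45 gene lists in each day 14 library, as the difference from the mean of the 3 naive libraries, with the number of genes tested in brackets; red is higher and blue lower. MI replicate 2 is the red column for collagen, matrix, inflammatory, interferon and complement lists and for neutrophil (2.5) and epicardial (3.1) markers, and the cell cycle lists at the top run from red to blue within MI and within naive hearts alike.

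Over whole lists, the repair lists had medians above 0 with MI replicate 2 and near 0 without it. Of the 29 complement and coagulation genes tested, 20 were higher in MI, 11 at an unadjusted p under 0.05, with a median log2 fold change of 0.56. Of all genes tested, 48.9% had a higher mean in MI, and their median was -0.01. At p under 0.05 stood 2.99% of all genes as higher and 2.36% as lower, for comparison with each list here. Without MI replicate 2 the median of the complement list was 0.10. The inflammatory list (41 tested, 7 higher and 0 lower at p under 0.05) had a median of 0.73 with MI replicate 2 and of -0.13 without it. The matrix list (55 tested, 8 higher, 1 lower) had medians of 0.50 and 0.02 and the 25 collagen chains (1 higher, 0 lower) of 0.40 and -0.01. Without naive replicate 3 the collagen median was 0.23. The interferon response list (32 tested, 0 at p under 0.05) had medians of 0.53 and 0.09, and MI replicate 2 was the highest of the 6 hearts in 29 of its genes. Epicardial markers (13 tested, 5 higher, 1 lower) had medians of 1.14 and 0.12. The order of these lists by median was thus largely set by MI replicate 2.

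A few repair genes were higher in all MI hearts. OSMR, the receptor of the cytokine oncostatin M, had 15.8, 33.0 and 25.2 CPM in MI and 14.2, 12.8 and 10.8 CPM in naive libraries (log2 0.97, SE 0.26, edgeR adjusted p 0.717). TCF21, a transcription factor of cardiac fibroblasts, had 22.5, 51.2 and 35.7 CPM in MI and 19.7, 18.3 and 9.85 CPM in naive libraries (log2 1.19, SE 0.33, edgeR adjusted p 0.717). POSTN, periostin, a matrix protein of activated fibroblasts, had 129, 371 and 145 CPM in MI and 81.8, 79.7 and 17.1 CPM in naive libraries (log2 1.85, SE 0.96, edgeR adjusted p 0.974). None of these 3 overlapped between the groups, and without MI replicate 2 their log2 fold changes were 0.70, 0.87 and 1.2. COL1A1, the main fibrillar collagen chain, had 1760, 5734 and 1361 CPM in MI and 2571, 1601 and 502 CPM in naive libraries (log2 0.92, SE 0.79). COL1A1 overlapped fully apart from MI replicate 2, and without it the log2 fold change was 0.00. Of 17 fibroblast markers tested, TCF21 was the only one at p under 0.05, against 5.35% of all genes tested. The list's median of 0.35 was -0.01 without MI replicate 2 and 0.11 without naive replicate 3. ACTA2, smooth muscle actin and a marker of myofibroblasts, had 282, 195 and 125 CPM in MI and 160, 136 and 91.3 CPM in naive libraries, with overlap (log2 0.63, SE 0.40).

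MI replicate 3 was distinguished by immediate early genes, which cells switch on within minutes of a stimulus. NR4A1, an orphan nuclear receptor of that class, had 28.6, 20.7 and 409.5 CPM in MI and 22.1, 29.5 and 30.7 CPM in naive libraries. NR4A3, its relative, had 8.18, 5.96 and 438 CPM in MI and 5.02, 9.48 and 10.5 CPM in naive libraries. FOS, a subunit of the AP-1 transcription factor, had 5.30, 15.5 and 61.7 CPM in MI and 4.13, 6.58 and 2.83 CPM in naive libraries (log2 2.60, SE 0.83, edgeR adjusted p 0.753). MI replicate 3 was the highest heart in all 3 genes, and NR4A1 had a log2 fold change of -0.16 without it. EGR1, another early gene, overlapped between the groups (30.4, 58.2 and 43.9 CPM in MI, 33.1, 36.8 and 41.9 CPM in naive libraries). Of the 33 tested genes of the list, 5 were higher and 2 lower at an unadjusted p under 0.05. Over all genes tested these shares were 2.99% and 2.36%. The list's median was 0.21, and 0.00 without MI replicate 2, while a median without MI replicate 3 was not computed. The list's mean log2 CPM was 4.097, 4.34 and 4.919 in MI and 4.226, 4.257 and 4.169 in naive libraries. MI replicate 3 thus had the highest mean. NPPA, atrial natriuretic peptide, was also highest in MI replicate 3, with 18.7, 37.6 and 156 CPM in MI and 5.49, 18.1 and 38.4 CPM in naive libraries (log2 1.78, SE 1.5, edgeR adjusted p 0.999). The related NPPB had 5.42, 8.04 and 3.01 CPM in MI and 9.59, 22.3 and 15.02 CPM in naive libraries, without overlap and in the other direction (log2 -1.51, SE 1.34, edgeR adjusted p 0.999). MYL4, the atrial light chain that the fetal ventricle also makes, had 19.8, 171 and 238 CPM in MI and 36.5, 19.6 and 25.2 CPM in naive libraries. MYL4 was high in MI replicates 2 and 3 and not in MI replicate 1.

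Most genes of the contractile apparatus had lower means in MI hearts. Over all genes tested, 51.1% had a lower and 48.9% a higher mean in MI. Of 37 sarcomere genes tested, 29 had a lower mean, 4 with p under 0.05, against 1 higher, and in 6 all MI values lay below all naive values, while in 0 they lay above. Over all genes the share at p under 0.05 and lower was 2.36%, and the share wholly below 4.49%. The list's median log2 fold change was -0.23, and its summed level was 121500, 86020 and 95410 CPM in MI and 107400, 137800 and 157100 CPM in naive libraries. The groups overlapped through naive replicate 1. ANKRD1, a stress-responsive ankyrin repeat protein of the sarcomere, had 2230, 887 and 402 CPM in MI and 2942, 2689 and 2635 CPM in naive libraries (log2 -1.23, SE 0.50, edgeR adjusted p 0.909). XIRP2, an actin-binding protein of the intercalated disc, had 26.4, 38.8 and 3.61 CPM in MI and 99.6, 105 and 131.5 CPM in naive libraries (log2 -2.29, SE 0.97, edgeR adjusted p 0.911). LMOD2, which elongates thin filaments, had 488, 369 and 390 CPM in MI and 523, 662 and 911 CPM in naive libraries (log2 -0.75, SE 0.26, edgeR adjusted p 0.809). None of these 3 overlapped, and MI replicate 3 was the lowest for ANKRD1 and XIRP2. Of the 12 cardiomyocyte markers tested, 10 had a lower mean in MI but 0 had p under 0.05, and the list's median was -0.40, or -0.20 without MI replicate 2 and -0.09 without naive replicate 3. TNNI1, the slow skeletal troponin I of the fetal heart, had 903, 274 and 870 CPM in MI and 366, 388 and 101 CPM in naive libraries, with overlap at MI replicate 2 (log2 1.26, SE 0.88, edgeR adjusted p 0.999).

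Genes of energy metabolism had mostly lower means in MI, and single hearts set much of the contrast. In the list of fatty acid uptake and use, 26 of 29 genes tested had a lower mean in MI, against 51.1% of all genes. At p under 0.05, 4 of the 29 (HADHA, HADHB, ACADM and MLYCD) were lower and 0 higher, against 2.36% and 2.99% of all genes. The list median was -0.32. HADHA, the alpha subunit of the mitochondrial trifunctional protein, had 1267, 613 and 862 CPM in MI and 877, 1442 and 2024 CPM in naive libraries, with overlap (log2 -0.66, SE 0.28, edgeR adjusted p 0.911). The naive hearts themselves differed here, from a list mean of 6.85 log2 CPM in naive replicate 1 to 7.71 in naive replicate 3, the library of the separate set. Without naive replicate 3 the median was -0.12, and without MI replicate 2 it was -0.19. Of 53 nuclear-encoded respiratory chain subunits, 52 had a lower mean in MI, against 51.1% of all genes, yet 0 had p under 0.05, and MI replicate 2 was the lowest of the 6 hearts in 41 of them. Their median was -0.25, and -0.08 without MI replicate 2, the lowest heart. For the 13 genes of the mitochondrial genome the median was -0.45, or -0.14 without naive replicate 3, the library with the highest ND1. ND1, a subunit of respiratory complex I, had 2768, 2289 and 3453 CPM in MI and 3809, 3215 and 19640 CPM in naive libraries. PPARGC1A, the coactivator PGC-1alpha that drives mitochondrial gene expression, overlapped between the groups with 160, 90.1 and 129 CPM in MI and 104, 216 and 179 CPM in naive libraries (log2 -0.40, SE 0.28).

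In glycolysis, the hexokinase genes HK2 and HK3 were each higher in all MI hearts than in any naive heart. HK2, the insulin-responsive muscle hexokinase (chromosome 3, 68155656 to 68231187), had 28.8, 11.5 and 23.2 CPM in MI and 3.51, 7.17 and 4.86 CPM in naive libraries (log2 2.03, SE 0.73, edgeR adjusted p 0.857). HK3, a hexokinase of white blood cells, had 3.24, 7.80 and 2.65 CPM in MI and 2.65, 1.08 and 1.46 CPM in naive libraries (log2 1.4, SE 0.51, edgeR adjusted p 0.872). HK2 was separated by a wide gap and HK3 by under 0.01 CPM, and MI replicate 2 was the lowest MI heart for HK2 and the highest for HK3. LDHA, lactate dehydrogenase A, had 593, 226 and 117 CPM in MI and 87.97, 153 and 66.1 CPM in naive libraries (log2 1.60, SE 0.60, edgeR adjusted p 0.872). The lactate exporter SLC16A3 had 65.1, 14.2 and 13.9 CPM in MI and 7.94, 15.1 and 8.21 CPM in naive libraries. LDHA and SLC16A3 overlapped between the groups, and MI replicate 1 was the highest heart for both and for HK2. PDK4, the kinase that keeps pyruvate out of mitochondria, was by contrast far below the other hearts in MI replicate 1, with 25.9, 488 and 903 CPM in MI and 313, 257 and 365 CPM in naive libraries. Over the 32 genes of the list, 4 were higher and 1 lower at p under 0.05, against 2.99% and 2.36% of all genes tested. The list's median was 0.11, or 0.24 without MI replicate 2. The 19 hypoxia response genes had a median of 0.24. P4HA1, a collagen prolyl hydroxylase, had 98.4, 87.7 and 62.4 CPM in MI and 56.0, 52.7 and 46.7 CPM in naive libraries (log2 0.68, SE 0.31). ADM, the vasodilator adrenomedullin, had 11.02, 7.72 and 7.20 CPM in MI and 16.4, 19.7 and 13.2 CPM in naive libraries (log2 -0.93, SE 0.37). Both were without overlap, in opposite directions.

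Cell cycle genes differed more among pigs of 1 group than between the groups. Of 34 genes of DNA replication and S phase and 41 of G2 and mitosis, 0 had p under 0.05 and in 0 were the groups separate. Over all genes tested these shares were 5.35% and 8.22%. In the 2 lists 28 and 36 genes had a higher mean in MI (medians 0.15 and 0.22), against 48.9% of all genes. The mean log2 CPM of the G2 and mitosis list was 4.75, 3.95 and 2.14 in MI and 4.47, 3.64 and 2.17 in naive libraries. Each group thus held a high, an intermediate and a low heart at nearly the same levels. TOP2A, a topoisomerase of dividing cells, had 119, 67.7 and 20.1 CPM in MI and 77.2, 47.5 and 17.0 CPM in naive libraries (log2 0.54, SE 0.82, edgeR adjusted p 0.999). CCNB1, cyclin B1, had 41.0, 21.5 and 5.27 CPM in MI and 40.9, 18.7 and 6.61 CPM in naive libraries (log2 0.03, SE 0.87, 95% interval -1.82 to 1.88). MKI67, the proliferation antigen Ki-67, went against this order in MI replicate 2, with 85.8, 240 and 40.4 CPM in MI and 87.9, 37.4 and 28.8 CPM in naive libraries (log2 1.25, SE 0.81, edgeR adjusted p 0.999). The lists' medians were -0.15 and -0.16 without naive replicate 3, the lowest naive heart, so their sign was not settled. Of 15 CDK inhibitors and growth arrest genes, GADD45G and MDM2 had p under 0.05, both lower in MI, against 2.36% of all genes tested. MDM2, the ubiquitin ligase for p53, had 21.8, 24.6 and 27.7 CPM in MI and 29.0, 32.0 and 32.6 CPM in naive libraries, without overlap (log2 -0.34, SE 0.16, edgeR adjusted p 0.934).

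Of 27 cardiac growth and regeneration regulators tested, 4 were higher (FGFR2, MEIS2, PIM1 and IGF2BP1) and 1 lower (FGF16) at p under 0.05. Over all genes tested these shares were 2.99% and 2.36%. The list's median was 0.15. IGF2BP1, an RNA-binding protein of fetal tissue, had 5, 0 and 29 counts in MI and 0 in all 3 naive libraries of day 14. The groups thus overlapped at 0. Its highest MI value was 0.285 CPM, in MI replicate 3, and naive day 28 replicate 3 had 0.728 CPM. FGF16, a cardiomyocyte growth factor, had 1.73, 0.579 and 0.942 CPM in MI and 1.67, 3.64 and 2.204 CPM in naive libraries, with overlap. TEAD3, a partner of the growth regulator YAP, had 29.4, 32.0 and 38.5 CPM in MI and 18.2, 27.6 and 27.1 CPM in naive libraries, without overlap (log2 0.46, SE 0.18). ANKRD1, on the same YAP and TEAD list, was lower in MI without overlap (2230, 887 and 402 CPM in MI, 2942, 2689 and 2635 CPM in naive libraries). The 27 YAP and TEAD factors and targets had a median of -0.08, with 1 higher and 2 lower at p under 0.05. That median was -0.03 without MI replicate 2 and 0.05 without naive replicate 3. PLAGL1, an imprinted zinc finger gene, had 30.4, 38.8 and 42.4 CPM in MI and 28.8, 25.9 and 22.7 CPM in naive libraries, without overlap (log2 0.53, SE 0.16). HSP90B1, a chaperone of the endoplasmic reticulum, had 396, 421 and 694 CPM in MI and 305, 358 and 296 CPM in naive libraries, also without overlap (log2 0.66, SE 0.24). The edgeR adjusted p of TEAD3, PLAGL1 and HSP90B1 was 0.872, 0.717 and 0.872. Of 44 cytosolic ribosomal protein genes, 43 had a higher mean in MI, against 48.9% of all genes tested, 1 of them (RPS16) with p under 0.05, and the median was 0.18, or 0.07 without naive replicate 3.

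Markers of other cell types mostly overlapped between the groups. Of 27 macrophage and monocyte markers, 4 were higher and 0 lower at p under 0.05, against 2.99% and 2.36% of all genes tested. Their summed level was 306, 1133 and 639 CPM in MI and 653, 559 and 611 CPM in naive libraries. MI replicate 1 was thus the lowest and MI replicate 2 the highest of the 6 hearts. CD68, a macrophage lysosomal protein, had 4.07, 14.3 and 8.01 CPM in MI and 7.72, 5.75 and 8.43 CPM in naive libraries (log2 0.27, SE 0.67, edgeR adjusted p 0.999). The 12 neutrophil markers summed to 10.7, 58.8 and 13.6 CPM in MI and 16.04, 11.7 and 7.22 CPM in naive libraries. Lymphocyte markers (25 tested), endothelial markers (20), smooth muscle and pericyte markers (18), adipocyte markers (14) and Schwann cell markers (15) had 0 members at p under 0.05, with medians from -0.29 to 0.05. Their medians ran from -0.71 (lymphocytes) to 0.09 without MI replicate 2 and from -0.31 to 0.26 (adipocytes) without naive replicate 3. The 9 erythroid genes summed to 206, 131 and 169 CPM in MI and 503.5, 376 and 134 CPM in naive libraries, with naive replicate 3 the second lowest of the 6. Of 23 glucocorticoid and thyroid response genes, 1 was higher and 3 lower at p under 0.05 (over all genes 2.99% and 2.36%), ZBTB16 among the lower. HR, a corepressor that thyroid hormone induces, had 7.83, 2.22 and 3.67 CPM in MI and 8.41, 15.7 and 15.3 CPM in naive libraries, without overlap (log2 -1.53, SE 0.42, edgeR adjusted p 0.717). FKBP5 and PER1, further glucocorticoid-induced genes, overlapped between the groups. The 19 clock genes had 0 members at p under 0.05.

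**Figure D4:**
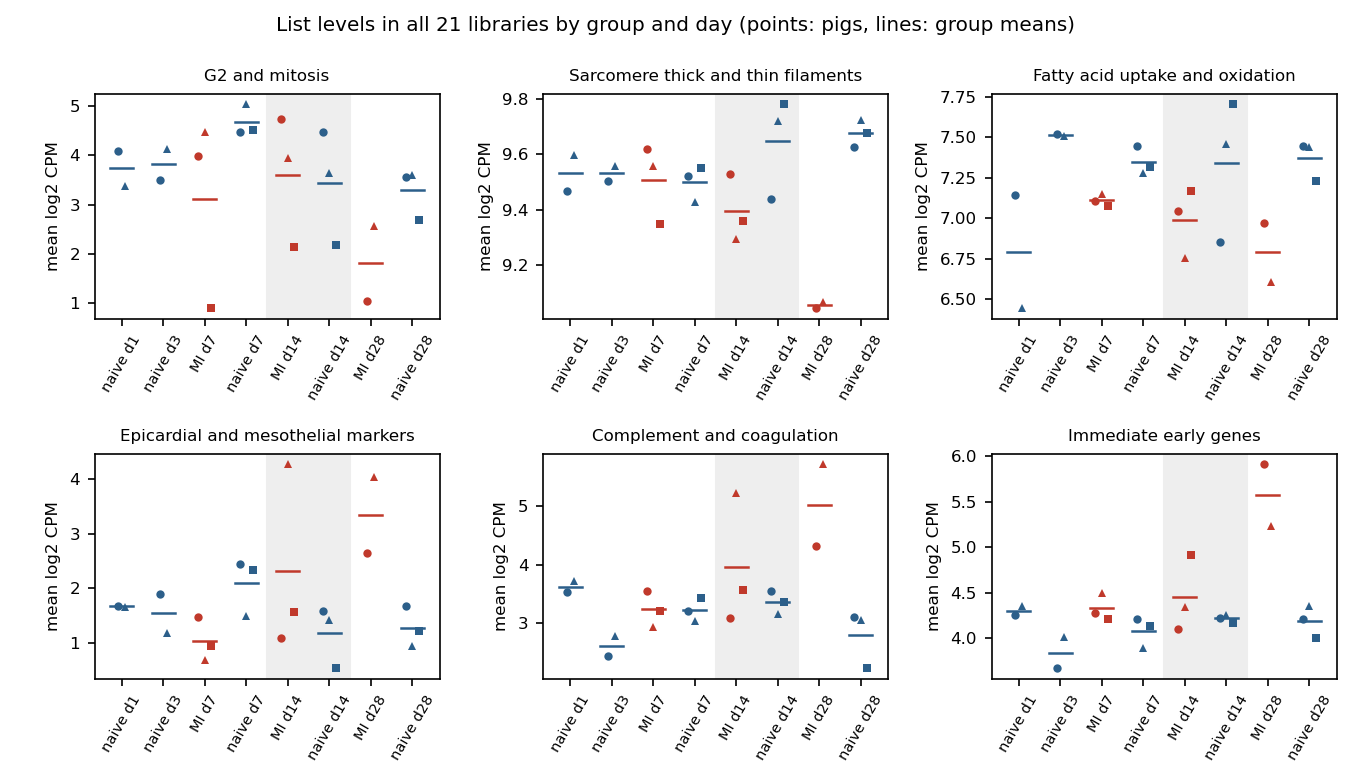
Mean log2 CPM of 6 gene lists in all 21 libraries by group and day, 1 point per pig with lines at the group means, MI in red and left of naive in blue within a day, day 14 shaded. In the G2 and mitosis panel the day 14 points of both groups span from about 4.75 to 2.14, and in the epicardial and complement panels 1 day 14 MI point lies level with the day 28 MI points.

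The infarct contrast of day 14 was set beside those of day 7 and day 28, whose libraries are different pigs. On day 7, 0 genes (0%) were called and 1905 (12.4%) had p under 0.05; on day 28, 1053 (6.86%) were called. Across the 15359 genes, which are not independent replicates, Pearson's r between log2 fold changes was 0.0818 for day 14 and day 7 (Spearman's rho 0.0903) and 0.455 for day 14 and day 28 (rho 0.303). Without MI day 14 replicate 2 these r values were 0.13 and 0.0939, and without naive day 14 replicate 3 they were 0.161 and 0.426. The correlation with day 28 was thus close to 0 without MI replicate 2. Of the 687 genes called higher on day 28, 567 (82.5%) had a higher mean in MI on day 14, with a median log2 fold change of 0.38. Among all genes positive on day 28, 58.4% did so. Of the 366 genes (2.38%) called lower on day 28, 312 (85.2%) had a lower mean on day 14, with a median of -0.24, against 60.7% of all genes negative on day 28. Without MI replicate 2 the shares were 53% and 68.3%, against 46.7% and 49.4% of all genes.

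**Figure D5:**
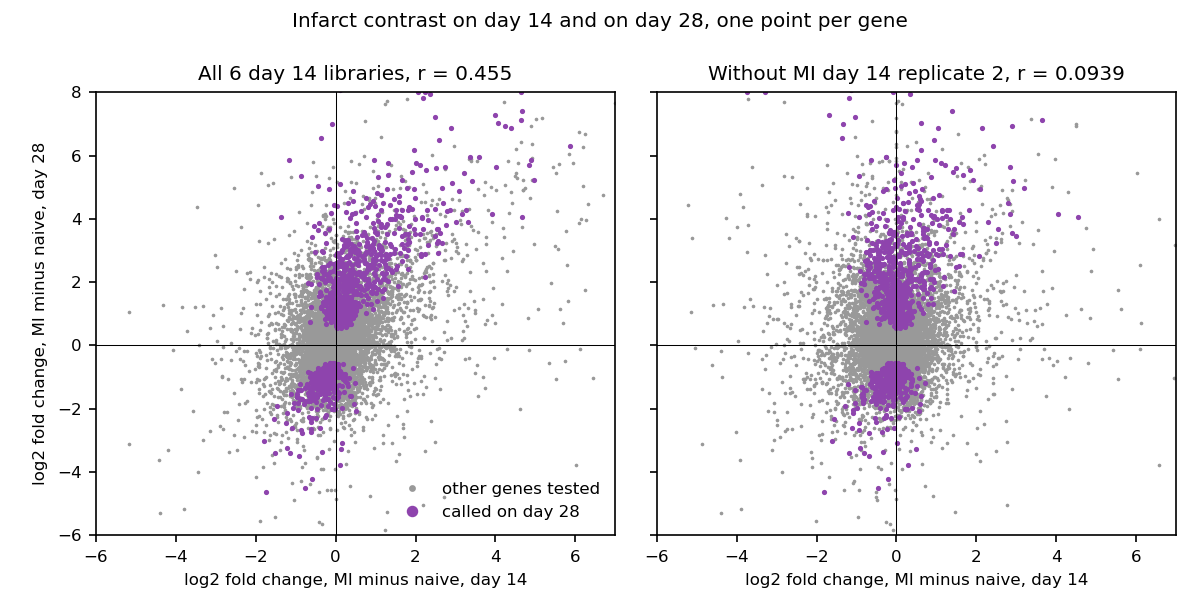
Log2 fold change of MI over naive on day 14 (horizontal) and day 28 (vertical) for each gene tested, with the genes called on day 28 in purple, for all 6 day 14 libraries at left and without MI day 14 replicate 2 at right. In each panel 44 genes lie outside the axes. The purple cloud leans to the upper right at left (r = 0.455) and stands nearly upright at right (r = 0.0939).

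The change of the infarct contrast between days was tested directly. Between day 7 and day 14, 1 gene (0.00651%) was called and 1086 (7.07%) had p under 0.05. It was ENSSSCG00000035617, which has no symbol in the sources used here. On day 14 it had 14.0, 15.2 and 15.4 CPM in MI and 29.6, 44.2 and 57.2 CPM in naive hearts, without overlap. On day 7 it had 62.4, 33.6 and 50.2 CPM in MI and 8.87, 9.67 and 13.7 CPM in naive hearts, without overlap in the other direction. The 3 naive hearts of day 7 stood below the naive hearts of all other days, which ranged from 27.3 to 57.8 CPM, and the MI hearts of day 7 lay near that range. The log2 fold change on day 14 minus that on day 7 was -3.74 (SE 0.515, edgeR adjusted p 0.0236). It was -3.35 with a term for the separate set (adjusted p 0.0523) and -3.41 without that set (adjusted p 0.0505), so the call was lost in both edgeR fits. Of 12 edgeR fits without 1 library, 2 kept the call and 10 lost it, with log2 differences from -3.94 to -3.45 and adjusted p up to 0.18. On day 28 the gene was again lower in MI, with 5.44 and 14.5 CPM, against 43.6, 57.8 and 50.1 CPM in naive hearts (log2 -2.34, edgeR adjusted p 0.0136). Between day 14 and day 28, 0 genes (0%) were called and 1781 (11.6%) had p under 0.05, whereas DESeq2 called 29. Leaving out MI day 28 replicate 1 or 2 gave 92 or 71 calls, but the MI arm of day 28 is then 1 pig, assumed to vary like the other groups. Leaving out MI day 14 replicate 2 gave 3. For PTN, NKD1 and COL6A5 the day 28 contrast was larger or similar (log2 2.15, 2.88 and 6.94), whereas GADD45G and MEIS2 had log2 fold changes of 0.50 and -0.17 on day 28.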

How the data were processed

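Per the submitters' processing notes, the authors used Trim Galore, STAR 2.5.2 and HTSeq 0.6.1 with the pig genome Sscrofa11.1, and deposited 1 table of raw read counts for 25880 genes in 21 libraries. The annotation release and strand setting are not named there. A symbol was available for 17947 genes in the table, and 807 more were named from a reference list of gene names matched by gene ID. The RefSeq table of Sscrofa11.1 gave the positions. Antisense or overlapping genes and near-identical copies could share reads.

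Counts were analysed with edgeR 4.0.16 in R 4.3.3: filterByExpr over 8 groups left 15359 genes, TMM factors set the effective library sizes, and a quasi-likelihood model with 1 coefficient per group was fitted to all 21 libraries (13 residual degrees of freedom). Infarct contrasts of day 14, day 7 and day 28 and the differences between days were tested with quasi-likelihood F-tests, 2-sided, called at a Benjamini-Hochberg adjusted p under 0.05. CPM use the scaled library sizes, and log2 CPM add a prior count of 2. DESeq2 1.42.0, limma 3.58.1 voom with sample weights, no expression filter, other scalings, only the day 14 libraries, a term for 4 libraries of a separate set, and leaving out single libraries served as alternatives. The code was tested on simulated data. Each library is a separate pig, as its title gives a pig number.

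The comparison and the 46 gene lists (1174 of 1267 members in the table, 45 lists with a tested member) were chosen with earlier results of these data known, and the members of a list are described by counts and medians without a test of the list. Sex-linked genes had 0 tested members. Genes were named by rule: the 10 smallest unadjusted p in each direction, since no gene was called, the 2 smallest p of each list, and 15 markers given whatever their values. Genes named because 1 library stood apart, and ALDH1A1, C3, C1R, WT1, FN1, FMOD, LDHA, SLC16A3, PDK4, NR4A3, EGR1, MYL4, HADHB, ACADM, FGF16, PIM1, FKBP5 and PER1, were chosen after their values were seen. One gene that the rule names is not reported here.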

Additional observations from a re-analysis of the deposited data

Results flagged for a closer look

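ENSSSCG00000035617, a gene with no symbol here, had a different infarct contrast on day 14 than on day 7, with a log2 difference of -3.74 (SE 0.515, edgeR quasi-likelihood F-test, adjusted p 0.0236 over all genes). The contrast was -1.55 on the log2 scale on day 14, lower in 3 of 3 MI hearts than in any naive heart. On day 7 all 3 MI hearts lay above all naive hearts. The call was lost with a term for the separate set of libraries (-3.35), without that set (-3.41) and in 10 of 12 fits without 1 library (-3.94 to -3.45 over all 12). The naive hearts of day 7 stood below the naive hearts of all other days. No day 14 group has 4 or more libraries, so single hearts were not checked against the range of their own group.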

How the results depend on the processing

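With 3 pigs a group, the median 95% interval reached 0.65 to either side on the log2 scale, before adjustment. On day 14, 0 genes were called. DESeq2 called 14, the fit without the separate set 2 (LIPM and ZBTB16), and fits without 1 library 0 to 1 (PTN, without MI replicate 1). All other settings gave 0. For day 14 minus day 7 the count was 1, with DESeq2 27, with voom 5, with a term for the separate set 0 and without single libraries 0 to 1. For day 28 minus day 14 the count was 0, with DESeq2 29, without the separate set 143, and without single libraries 0 to 92. The 143 and the highest counts come from fits with 1 MI pig of day 28, assumed to vary like the other groups. Leaving out both MI replicate 2 and naive replicate 3, chosen after seeing the data, gave 0, 0 and 8.

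Some single genes changed sign. HDC had a log2 fold change of -0.745 with voom. LIPE had 0.0451 without the separate set. CCNB1 had -0.0729 with a term for the separate set and -0.378 without that set. Across fits without 1 or both libraries the log2 fold changes ranged as follows: RRM1 -0.0781 to 0.313, MKI67 -0.00967 to 1.94, TIMP1 -0.0201 to 3.08, NR4A1 -0.156 to 3.07, GBP2 -0.244 to 1.32, IFI30 -0.0411 to 1.41, COL1A1 -0.437 to 1.54, HDC -2.3 to 3.45, LIPE -1.23 to 0.0321, TOP2A -0.106 to 1.13, CCNB1 -0.725 to 0.869 and CD68 -0.271 to 0.609. The cause was not tested. No scaling moved the median of all genes by 0.1 or more.

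No paired analysis was possible because the pigs' titles carry no replicate number shared between MI and naive hearts.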

Other observations

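Some genes were set apart in a heart other than MI replicate 2, and all were picked for that. In MI replicate 1, ACTG2, the enteric smooth muscle actin, had 57.7, 13.1 and 4.02 CPM in MI libraries and 9.29, 7.06 and 1.98 CPM in naive libraries. XDH, xanthine dehydrogenase, was low there, with 0.352, 2.58 and 9.69 CPM in MI libraries and 6.50, 24.2 and 35.2 CPM in naive libraries. In MI replicate 3, SIK1, a kinase induced by cyclic AMP, had 22.1, 21 and 121 CPM in MI libraries and 21.3, 19.6 and 6.54 CPM in naive libraries. CLU, the secreted chaperone clusterin, was lowest in that heart, with 323, 515 and 76.6 CPM in MI libraries and 475, 515 and 884 CPM in naive libraries.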
